A study of Mus musculus with 6 samples.

Results

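ATP-binding cassette (ABC) transporters were represented by 89 probe sets for 43 genes, out of 45101 probe sets and 18193 singly named genes in all. They are all probe sets for which the platform annotation names a single gene of the Abca to Abcg series, without Abcb1a and Abcg2, and all 89 gave a signal. Gene expression was compared between lumbar dorsal root ganglia (DRG), the seat of sensory neuron somata beside the spine, and lumbar spinal cord (SC), both taken from levels L1 to L6 of male C57BL/6J mice that were 3 months old and carried no stated allele or treatment. Each tissue had 3 arrays of total RNA, and each array measured a separate pool of 4 mice, so the spread between arrays is the spread between pools. In such whole-tissue RNA, fewer cells of a type and less RNA per cell cannot be told apart.

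ABC proteins use the hydrolysis of ATP to move lipids, peptides, conjugated metabolites and other substrates across membranes. Subfamily A moves phospholipids and sterols, B moves lipids, peptides and mitochondrial compounds, C exports organic anions and also holds the sulfonylurea receptors that regulate potassium channels, D carries fatty acyl-CoA into peroxisomes, and G exports sterols. Subfamilies E and F lack membrane-spanning segments and act at the ribosome. In nervous tissue these proteins are best known for sterol supply between glia and neurons, for the lipids of myelin and for the barrier of blood vessels.

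The promoters of 4 members whose differences are described here are shown first, as 250 bases before and 50 bases after the RefSeq start site, read on the strand of the gene, from GRCm38.p6. RefSeq promoters were found for 33 of the 43 genes. For Abca1 (chr4:53159846-53160145, minus strand), a gene known to be induced through the sterol-sensing liver X receptors (LXR), capitals mark a form of the LXR element, written as GGTNA and GGTCA with 5 arbitrary bases between them.
Abca1: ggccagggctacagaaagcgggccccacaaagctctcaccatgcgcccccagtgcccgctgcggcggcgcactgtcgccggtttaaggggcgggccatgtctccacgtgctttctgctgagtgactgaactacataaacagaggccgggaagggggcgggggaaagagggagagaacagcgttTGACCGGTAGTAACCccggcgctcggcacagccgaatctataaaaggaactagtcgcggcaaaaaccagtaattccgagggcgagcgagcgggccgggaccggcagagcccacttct
For Abca8a (chr11:110095888-110096187, minus strand), the member with the largest difference, capitals mark the E-box CACGTG.
Abca8a: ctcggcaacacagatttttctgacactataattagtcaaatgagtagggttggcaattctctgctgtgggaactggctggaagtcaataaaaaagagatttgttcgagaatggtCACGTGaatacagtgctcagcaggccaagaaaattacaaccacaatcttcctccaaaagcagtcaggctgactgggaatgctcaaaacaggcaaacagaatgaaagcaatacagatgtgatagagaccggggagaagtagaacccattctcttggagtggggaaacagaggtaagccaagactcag
For Abca5 (chr11:110337667-110337966, minus strand), which lies in the same row of genes as Abca8a, and for Abca2 (chr2:25428349-25428648, plus strand), which differed in the opposite direction, capitals mark the GC box GGGCGG.
Abca5: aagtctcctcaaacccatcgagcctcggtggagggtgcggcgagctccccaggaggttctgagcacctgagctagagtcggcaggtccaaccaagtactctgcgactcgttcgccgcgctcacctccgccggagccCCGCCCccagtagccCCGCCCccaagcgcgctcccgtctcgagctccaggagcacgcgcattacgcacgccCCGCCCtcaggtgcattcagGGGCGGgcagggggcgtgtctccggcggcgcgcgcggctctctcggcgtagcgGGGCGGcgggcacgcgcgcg
Abca2: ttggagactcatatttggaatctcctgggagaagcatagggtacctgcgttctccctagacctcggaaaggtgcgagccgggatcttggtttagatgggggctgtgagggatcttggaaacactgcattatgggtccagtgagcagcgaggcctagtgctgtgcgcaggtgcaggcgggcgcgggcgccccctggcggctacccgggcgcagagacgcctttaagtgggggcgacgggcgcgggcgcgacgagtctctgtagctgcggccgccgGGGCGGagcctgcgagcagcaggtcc
All motifs were searched on both strands of 300 bases. The LXR element began 67 bases before the start of Abca1 and was found in 0.207% of 32851 promoters, and in no other ABC promoter. The GC box was found in 19 of 38 ABC promoters and in 35.7% of all promoters, and the E-box in those of Abca1, Abca8a, Abca8b, Abcc4 and Abcf1 and in 7.15% of all. The Abca8a and Abca9 promoters held 4 and 2 CpG dinucleotides, against 40 for Abca5 and a median of 7 over all promoters. These matches describe the letters of the windows and were not tested against expression.

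Values are MAS5 signals recovered from the deposited ratios and kept on the authors' array scaling, in arbitrary array units. A difference is the DRG mean minus the SC mean of log2(signal + 16). Each gene is read from its probe set with the highest mean, and a call is a limma adjusted p under 0.05 over 45029 probe sets. As a mark of low signal, the 95th percentile of 60 probe sets for genes not expected in either tissue was used, which lay between 132.2 and 191.7 on the 6 arrays. A gene that no array of a tissue showed above this level is dim there. Its fold is then a lower bound, computed with this level, or the gene's own signal where higher, in place of the dim tissue. The authors' array scaling raised DRG relative to SC: the median gene differed by 0.18 on the deposited scaling, by 0.04 with quantile-normalized signals and by −0.10 with signals before that scaling. A difference is therefore given on the deposited scaling, and the other 2 scalings are given where they change an ABC gene's call.

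Among the 43 ABC genes, 19 (44.2%) were higher in DRG and 3 (6.98%) were higher in SC. Over all 18192 singly named genes with a recovered signal the shares were 31.8% and 9.7%. The median difference of the ABC genes was 0.23, close to the 0.18 of all genes. Calls that held on all 3 scalings numbered 11 toward DRG (25.6%, against 17.4% of all genes) and 3 toward SC (6.98%, against 9.5%). Calls with a log2 difference of at least 1 numbered 9 toward DRG (20.9%, against 11.5%) and 2 toward SC (4.65%, against 4.77%). For 3 of these 11, Abca8b, Abcb6 and Abcd2, the dim tissue leaves a lower bound under 2-fold. The count toward DRG depends on the scaling. With quantile normalization, the differences of Abca3, Abca5 and Abca8b were under 1 (0.965, 0.771 and 0.909). Before the array scaling, those of Abca3, Abca5, Abca8b, Abca9 and Abcb6 were (0.972, 0.916, 0.681, 0.936 and 0.745). These genes kept their calls. The arrays of DRG and SC did not overlap for 21 genes brighter in DRG and for 3 brighter in SC, 48.8% and 6.98%, against 37.9% and 13.8% of all genes. Quantile normalization gave 13 ABC genes called toward DRG and 5 toward SC, where all genes gave 20.5% and 16%, and signals before the array scaling gave 11 and 7, where all genes gave 19.3% and 19.7%. Of the 89 probe sets, 26 were called toward DRG and 12 toward SC (29.2% and 13.5%, against 22.7% and 9.79% of all probe sets). Toward SC, the share of genes was thus under that of all genes and the share of probe sets above that of all probe sets. With quantile normalization 16 and 15 ABC probe sets were called, where all probe sets gave 14.9% and 14.4%. Before the array scaling these were 15 and 21, where all probe sets gave 13.3% and 19.9%. On all 6 arrays, 16 of the 43 genes were at or under the level of genes not expected, and 1 of these, Abca6, was called.

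**Figure D1:**
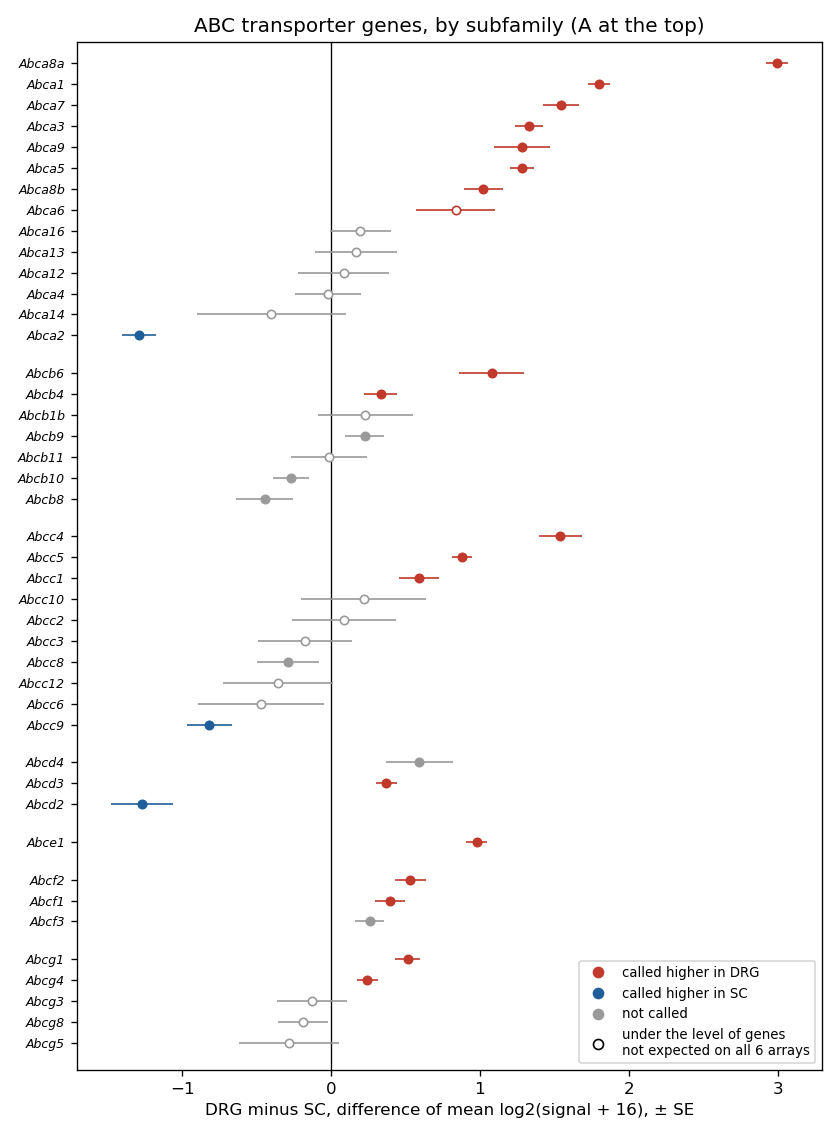
Difference between tissues for the 43 ABC genes (x axis, DRG minus SC on the log2(signal + 16) scale, points with ± SE from limma with 3 arrays per tissue), grouped by subfamily on the y axis. Red and blue points are called, open points were at or under the level of genes not expected on all 6 arrays, and Abca8a stands farthest toward DRG at 3.00.

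Subfamily A held 8 of the 11 calls with a log2 difference of at least 1 on the deposited scaling. Of its 14 genes, 8 were called toward DRG and 1 toward SC, 57.1% and 7.14% against 31.8% and 9.7% of all genes, and their median difference was 0.93. With quantile normalization the median was 0.82, with 8 and 1 called (20.5% and 16% of all genes), and before the array scaling it was 0.61, with 7 and 1 (19.3% and 19.7%). The other 5 (Abca4, Abca12, Abca13, Abca14 and Abca16) were under the level of genes not expected on every array, with differences between −0.40 and 0.20 that were not called.

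Abca8a, a lipid and organic anion transporter, had signals of 2540, 2253 and 2325 on the 3 DRG arrays and of 283, 277 and 289 on the 3 SC arrays. The tissues were far apart and the arrays of each close together. The DRG level was 8.37-fold the SC level, a difference of 3.00 ± 0.07 (SE, n = 3 per tissue; limma adjusted p = 1.15e-08), which ranked 143rd toward DRG among 18192 genes. Abca1, which loads cholesterol and phospholipid onto apolipoproteins, had signals of 2037, 2108 and 2178 in DRG and 566, 637 and 580 in SC, a 3.55-fold difference (1.80 ± 0.07, SE; adjusted p = 1.59e-07). All 3 probe sets of Abca1 were called toward DRG. The weakest of them, 1450392_at, differed by 0.55 and was not called with quantile normalization (adjusted p = 0.0967) or before the array scaling (0.424).

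Abca7, a phospholipid transporter related to Abca1, had signals of 1008, 780 and 1076 in DRG and 329, 317 and 295 in SC. This was 3.02-fold (1.54 ± 0.12, SE; adjusted p = 8.94e-06), and DRG replicate 2 was the lowest of its tissue. Abca3, known for loading surfactant lipid into lamellar bodies of the lung, had signals of 854, 1024 and 929 in DRG and 332, 380 and 372 in SC, 2.59-fold (1.33 ± 0.09, SE; adjusted p = 4.68e-06). A second probe set of Abca3 was also higher in DRG at 0.71, and the third, 1451869_at, was dim in both tissues and not called at −0.44 (adjusted p = 0.21). The second was not called with quantile normalization (0.43, adjusted p = 0.0738). Before the array scaling it was not called either (0.36, adjusted p = 0.105) and the third was called toward SC (−0.71, 0.0437).

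A row of 5 neighbouring A genes was called toward DRG on the deposited scaling. In GRCm38.p6, Abca8b, Abca8a, Abca9, Abca6 and Abca5 follow one another with no other protein-coding gene between them. Abca5, a protein of lysosomes and late endosomes, had signals of 1764, 1818 and 1634 in DRG and 695, 766 and 657 in SC, 2.46-fold (1.28 ± 0.08, SE; adjusted p = 2.32e-06). Abca9 had signals of 324, 369 and 454 in DRG and 114, 190 and 144 in SC, 2.60-fold (1.28 ± 0.19, SE; adjusted p = 0.000512). SC replicates 1 and 3 were under the level of genes not expected. The call of Abca9 was lost with the mean of its 2 probe sets, which was 0.50 (adjusted p = 0.117). Its dimmer probe set, 1458929_at, was dim in both tissues and not called at −0.29 (adjusted p = 0.658). Abca8b had signals of 263, 251 and 302 in DRG and 130, 113 and 134 in SC. All SC values were under the level of genes not expected, so its fold was at least 1.78 (1.02 ± 0.13, SE; adjusted p = 0.000258).

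Abca6 was dim in both tissues, with 92, 104 and 80 in DRG and 60, 47 and 29 in SC. Its arrays did not overlap, but the call was weak (0.84 ± 0.27, SE; limma adjusted p = 0.0373). It was lost before the array scaling (0.55, adjusted p = 0.158) and when DRG replicate 1, 2 or 3 or SC replicate 2 or 3 was left out (0.0869, 0.104, 0.0578, 0.0762 and 0.115; over all alternatives the adjusted p ran from 0.0187 to 0.158). Abca8a and Abca8b are close paralogues, and it was not tested whether their probes can bind each other's transcripts.

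Abca2 was the exception in its subfamily. This transporter of lysosomal vesicles, known from oligodendrocytes, had signals of 653, 481 and 590 in DRG and 1476, 1308 and 1470 in SC. Every SC array was above every DRG array, and SC was 2.48-fold higher (−1.29 ± 0.11, SE; limma adjusted p = 1.83e-05). The difference was −1.78 with quantile normalization and −1.65 before the array scaling.

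**Figure D2:**
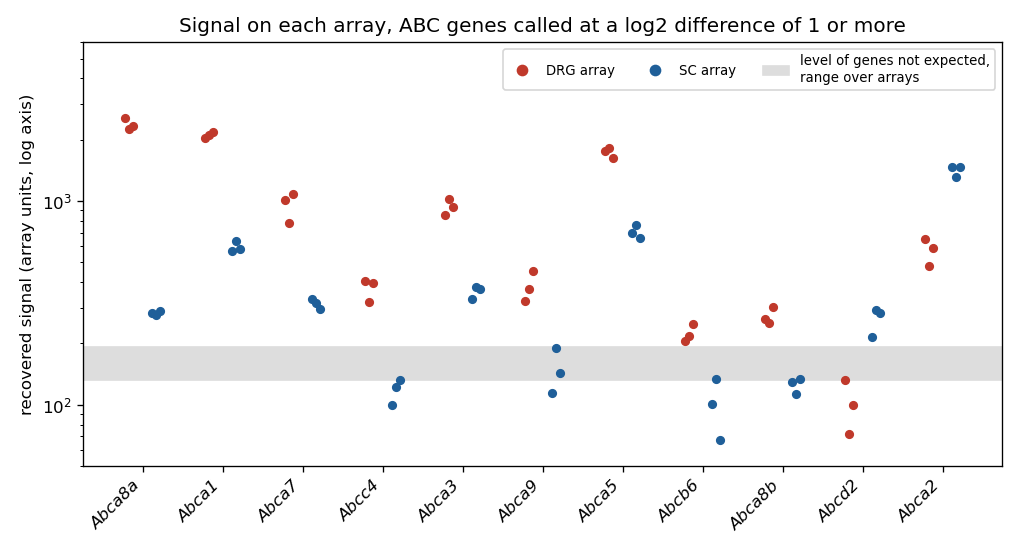
Recovered signal on each of the 6 arrays (y axis, log scale, array units) for the 11 ABC genes called with a log2 difference of at least 1, ordered by difference along the x axis. Each point is 1 array, and the grey band spans 132.2 to 191.7, the level of genes not expected. In all 11 genes the 3 DRG arrays and the 3 SC arrays lay apart.

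Peroxisomal transporters, subfamily D, did not move together. Abcd2, which imports very long-chain and polyunsaturated acyl-CoA, had signals from 72.2 to 132 on the DRG arrays and of 215, 293 and 281 in SC. The DRG values were all under the level of genes not expected, so SC was at least 1.68-fold higher (−1.27 ± 0.21, SE; limma adjusted p = 0.00117). Of its 4 probe sets, 3 were called toward SC, with differences of −1.27, −1.09 and −0.84, and the fourth, 1439835_x_at, was dim and not called. Abcd3, the abundant peroxisomal transporter for branched-chain acyl-CoA, had signals of 1263, 1119 and 1176 in DRG and 922, 926 and 891 in SC. Its call toward DRG (0.37 ± 0.07, SE; adjusted p = 0.00299) was lost on the other scalings, at −0.14 (adjusted p = 0.13) and 0.00 (0.974), and with the mean of its 2 probe sets (0.06, 0.765). Abcd4, a lysosomal protein of cobalamin transport, was not called at 0.59 (adjusted p = 0.0764).

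Of 10 C genes, Abcc1, Abcc4 and Abcc5 were higher in DRG and Abcc9 was higher in SC, and 5 others were under the level of genes not expected on every array. Abcc4, an exporter of cyclic nucleotides and prostaglandins, had signals of 406, 319 and 394 in DRG and 99.7, 122 and 132 in SC. All SC values were under the level of genes not expected, so DRG was at least 2.44-fold higher (1.54 ± 0.15, SE; limma adjusted p = 3.14e-05). Abcc1, an exporter of glutathione conjugates, was 1.54-fold higher in DRG (0.59 ± 0.14, SE; adjusted p = 0.00794). It was not called before the array scaling (0.24, adjusted p = 0.198) or with the mean of its 2 probe sets (0.30, adjusted p = 0.0599). Its other probe set, 1421378_s_at, was not dim and was not called at 0.002 (adjusted p = 0.99). On the other scalings that probe set was at −0.11 and −0.34, also without a call.

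Abcc9, the sulfonylurea receptor of vascular potassium channels and a marker of pericytes, had signals of 118, 179 and 152 in DRG and 265, 283 and 269 in SC. SC was 1.85-fold higher (−0.82 ± 0.15, SE; limma adjusted p = 0.00244), though DRG replicates 1 and 2 were under the level of genes not expected. All 3 probe sets of Abcc9 were called toward SC on each scaling, but 1420408_a_at was dim in both tissues and 1435751_at in DRG. Kcnj8, its pore partner and its direct neighbour in GRCm38.p6, was under the level of genes not expected on all arrays, at −1.22 (adjusted p = 0.0834), and was called toward SC before the array scaling (−1.49, 0.0384). Of 9 markers of pericytes and smooth muscle, Kcnj8 included, 5 (55.6%, against 31.8% of all genes) were called toward DRG. Toward SC, 1 was called (11.1%, against 9.7%), Notch3 at −0.71 (limma adjusted p = 0.000216). Their median difference was 0.69, or 0.18 with quantile normalization and 0.33 before the array scaling. Their summed signal was 4805 to 4942 in DRG and 3199 to 3251 in SC. Abcc8, the sulfonylurea receptor of neurons and islet cells, was not called at −0.29 (adjusted p = 0.364) except before the array scaling (−0.63, 0.0476), while its other probe set was called toward SC at −0.54 (adjusted p = 0.0162). Its neighbour and pore partner Kcnj11 was called toward DRG at 0.32 (adjusted p = 0.0463) and had the opposite sign on the other scalings, at −0.10 and −0.05, without a call.

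Abcc5, an exporter of cyclic nucleotides and other organic anions, was the only ABC gene with probe sets called in opposite directions on the deposited scaling. Its brightest probe set, 1418042_a_at, had signals of 2347, 2169 and 2136 in DRG and 1235, 1166 and 1195 in SC (0.88 ± 0.07, SE; limma adjusted p = 9.02e-06). Probe set 1418043_at had signals of 139, 152 and 159 in DRG and 238, 235 and 229 in SC (−0.59 ± 0.12, SE; adjusted p = 0.00392). Of the 10 probe sets of the gene, 4 were called toward DRG, 2 toward SC and 4 were not called on the deposited scaling. On both other scalings 1435684_at (−0.61 and −0.66) and 1435683_a_at (−0.41 and −0.54) were called toward SC as well. The DRG call of 1438056_x_at was lost on both, and that of 1427565_a_at with quantile normalization. More probe sets were thus called toward SC than toward DRG on each of those scalings. Both probe sets above kept their calls with quantile normalization (0.30 and −0.73) and before the array scaling (0.51 and −0.94). The log2 ratio of the first to the second on the same array, which a single factor per array leaves as it is and quantile normalization does not, was 4.08, 3.83 and 3.75 in DRG and 2.37, 2.31 and 2.38 in SC. Its means differed by 1.53 (SD 0.17 in DRG and 0.04 in SC), given as a description, since the pair was taken for its opposite calls. With the probe sets that can match several transcripts left out, the gene's difference was −0.30 (adjusted p = 0.0937), and with the mean of all 10 it was 0.17 (adjusted p = 0.19).

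**Figure D3:**
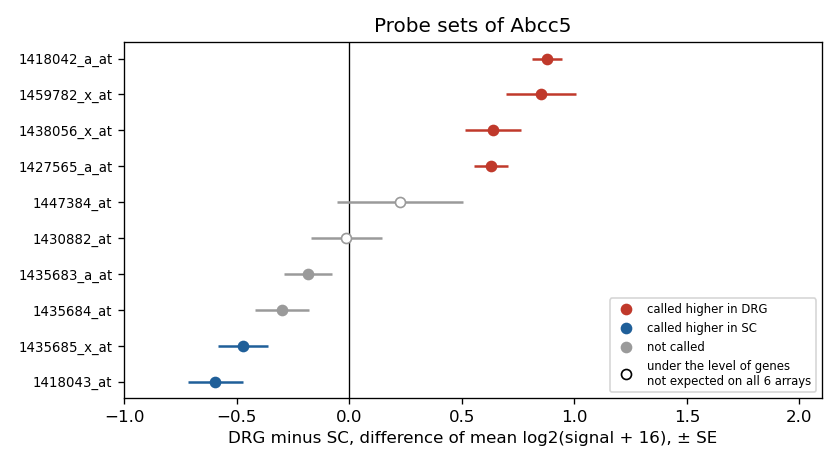
Difference between tissues for the 10 probe sets of Abcc5 (x axis, DRG minus SC on the log2(signal + 16) scale, points with ± SE from limma with 3 arrays per tissue, y axis, probe set). The called probe sets lay on both sides of 0, from −0.59 to 0.88.

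Of 7 B genes, Abcb6 and Abcb4 were called toward DRG (28.6%, against 31.8% of all genes). Abcb6, a porphyrin transporter, had signals of 205, 217 and 250 in DRG and 101, 134 and 67 in SC. All SC arrays were under the level of genes not expected, so the fold was at least 1.46 (1.08 ± 0.22, SE; limma adjusted p = 0.00398). Abcb4, a phosphatidylcholine transporter of bile, was at 0.34 ± 0.11 (SE; adjusted p = 0.0454). Its call was lost when any of the 6 arrays was left out (0.0551 to 0.135) and on both other scalings, at 0.16 (adjusted p = 0.358) and −0.01 (0.939).

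The mitochondrial members Abcb10 and Abcb8 were not called, at −0.27 (adjusted p = 0.13) and −0.45 (0.11). On the other scalings both were called toward SC: Abcb10 at −0.57 (adjusted p = 0.00759) and −0.63 (0.00317), and Abcb8 at −0.74 (0.016) and −0.80 (0.00792). The other 2 probe sets of Abcb10, a transporter needed for haem synthesis, were called toward SC at −0.64 (adjusted p = 0.00513) and −1.03 (0.0431). The latter, 1454265_a_at, was dim in both tissues and was not called with quantile normalization (limma adjusted p = 0.054). Without SC replicate 1 the brightest probe set was called too (−0.38, adjusted p = 0.0334). Abcb8 was called without DRG replicate 1 (−0.61, adjusted p = 0.0432) or SC replicate 3 (−0.64, 0.0194), and its second, dimmer probe set had the opposite sign, at 0.15 (0.646). Abcb9, a lysosomal peptide transporter, was not called at 0.22 (adjusted p = 0.245), nor on the other scalings at 0.02 and −0.13. Its probe set 1430394_a_at was at −0.41 (0.128) and was called toward SC before the array scaling (−0.746, 0.00904). Probe set 1416264_at was not called at 0.60 (0.302). Abcb1b and Abcb11 were under the level of genes not expected.

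Of the 4 ribosomal members, Abce1, Abcf1 and Abcf2 were higher in DRG on the deposited scaling, where 31.8% of all genes were. Abce1, which splits ribosomes after termination, had signals of 1416, 1577 and 1548 in DRG and 767, 755 and 758 in SC, 1.99-fold (0.98 ± 0.07, SE; limma adjusted p = 5.12e-06). It stayed called toward DRG with quantile normalization at 0.47 and before the array scaling at 0.61. A second probe set was called at 0.89. Abcf2 and Abcf1 were called at 0.53 (adjusted p = 0.00333) and 0.39 (0.0131), and Abcf3 was not, at 0.26 (0.0724). No F gene was called on another scaling, where Abcf2 was at 0.22 and 0.17 and Abcf1 at −0.01 and 0.03. Abcf1 was also not called without SC replicate 2 (adjusted p = 0.0562), and with the mean of its probe sets neither Abcf1 (0.13, adjusted p = 0.568) nor Abcf2 (0.47, 0.112) was.

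Of 5 G genes, the sterol exporters Abcg1 and Abcg4 were called toward DRG on the deposited scaling (40.0%, against 31.8% of all genes). On neither other scaling were Abcg1 and Abcg4 called. Abcg1, which passes cholesterol to lipoprotein particles, had signals of 1101, 1017 and 939 in DRG and 735, 653 and 738 in SC, 1.44-fold (0.51 ± 0.09, SE; limma adjusted p = 0.00126). Abcg4, its neuronal relative, was called at 0.24 (adjusted p = 0.0276). Their differences were 0.04 and −0.20 with quantile normalization and 0.15 and −0.12 before the array scaling. The call of Abcg4 was also lost without DRG replicate 1 or 3 or SC replicate 1, 2 or 3 (0.083, 0.0567, 0.0857, 0.0538 and 0.073). Abcg3, Abcg5 and Abcg8 were under the level of genes not expected on every array, and Abcg8 was called toward SC before the array scaling (−0.52, adjusted p = 0.0372).

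**Figure D4:**
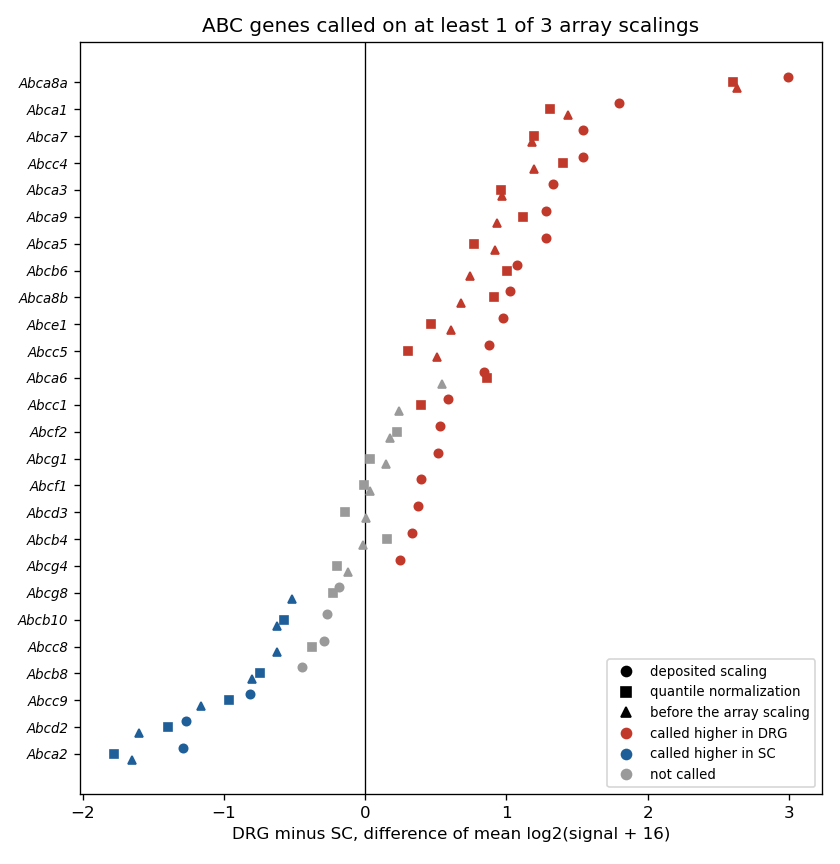
Difference between tissues (x axis, DRG minus SC on the log2(signal + 16) scale) for the ABC genes called on at least 1 of 3 array scalings (y axis), with a circle for the deposited scaling, a square for quantile normalization and a triangle for signals before the array scaling. The 11 genes called toward DRG on all 3 scalings had deposited differences from 0.88 to 3.00, and the other 8 from 0.24 to 0.84.

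Genes that work with ABC proteins were read from 9 lists. Their counts stand beside 31.8% of all genes called toward DRG and 9.7% toward SC on the deposited scaling. Of 16 genes of sterol efflux, 4 (25.0%) were called toward DRG and 6 (37.5%) toward SC, with 1 against 7 and 2 against 6 on the other scalings. The median difference was −0.05, or −0.28 with quantile normalization and −0.39 before the array scaling. Lipa, the lysosomal cholesteryl ester hydrolase, was higher in DRG at 1.79, while Lcat, which esterifies cholesterol on lipoproteins, and Cyp27a1, which makes an oxysterol, had SC levels of at least 2.45-fold and 2.33-fold those of DRG. Nr1h3, an LXR gene, was under the level of genes not expected on all arrays, at −0.14 (limma adjusted p = 0.637). The sterol genes that were called thus lay on both sides, Abca1 among those higher in DRG.

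Of 23 peroxisome genes, 9 (39.1%) were called toward DRG and 1 (4.35%) toward SC, against 31.8% and 9.7% of all genes. Their median difference of 0.26 shrank to 0.03 and −0.05 on the other scalings, where the split was 5 against 4 and 4 against 5. The hydrogen peroxide-degrading enzyme Cat was higher in DRG at 1.02, and Pex14, a docking protein, and Amacr, a racemase of branched-chain acyl-CoA, at 0.92 each. Of 23 genes of iron-sulfur cluster and haem synthesis, 12 (52.2%) were called toward DRG and 1 (4.35%) toward SC, against the same 31.8% and 9.7%, at a median difference of 0.46, while the splits were 4 against 5 and 5 against 6 on the other scalings. Alas2, the erythroid enzyme of haem synthesis, was called toward DRG, but it was under the level of genes not expected on all SC arrays and 2 of 3 DRG arrays, and no fold is given. Lyrm4, a cluster assembly factor, was higher at 1.42, and Cpox, a late haem enzyme, was lower at −1.10.

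Of 11 antigen peptide loading genes, 9 (81.8%, against 31.8% of all genes) were called toward DRG on the deposited scaling and 0 toward SC on any scaling by limma. At an unadjusted p under 0.05, 10 lay toward DRG and 0 toward SC. The median difference was 1.05, or 0.85 and 0.76 on the other scalings, with 6 and 7 genes called. Psmb8, an immunoproteasome subunit, was brighter in DRG by at least 1.52-fold, and the class I genes H2-K1 and H2-D1 were higher at 1.61 and 1.51. The ABC peptide transporters of this pathway carry other symbols. Tap2 was at least 1.32-fold higher in DRG (0.67, adjusted p = 0.00665) and Tap1 was called at 0.89 (0.015) while under the level of genes not expected on all arrays, and before the array scaling neither was called. Cftr, a chloride channel of the C subfamily, was under that level and not called (−0.53, adjusted p = 0.422).

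Of 20 genes of glutathione conjugation, 10 (50%, against 31.8% of all genes) were called toward DRG and 4 (20%, against 9.7%) toward SC. The split was 6 against 6 and 6 against 4 on the other scalings, and the median difference of 0.28 was 0.08 and −0.01 there. The xenobiotic sensor Ahr was at least 2.13-fold and the transferase Gstm2 at least 1.81-fold higher in DRG, while its relative Gstm1 was higher in SC at −1.58. Of 14 organic ion solute carriers, 3 (21.4%) were called toward DRG and 4 (28.6%) toward SC, with 3 against 4 and 3 against 6 on the other scalings. Their median difference of 0.13 turned to −0.09 and −0.17 there. The thyroxine carrier Slco1c1 was brighter in SC by at least 2.44-fold, and the cation exporter Slc47a1 was brighter in DRG by at least 2.56-fold. Of 10 partners at the ribosome, 7 (70.0%, against 31.8% of all genes) were called toward DRG and 0 toward SC, at a median difference of 0.58 (0.08 and 0.22 on the other scalings, with 4 against 1 each), and at an unadjusted p under 0.05 limma gave 7 and 1. Etf1, the termination factor that acts with Abce1, was at 1.09.

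**Figure D5:**
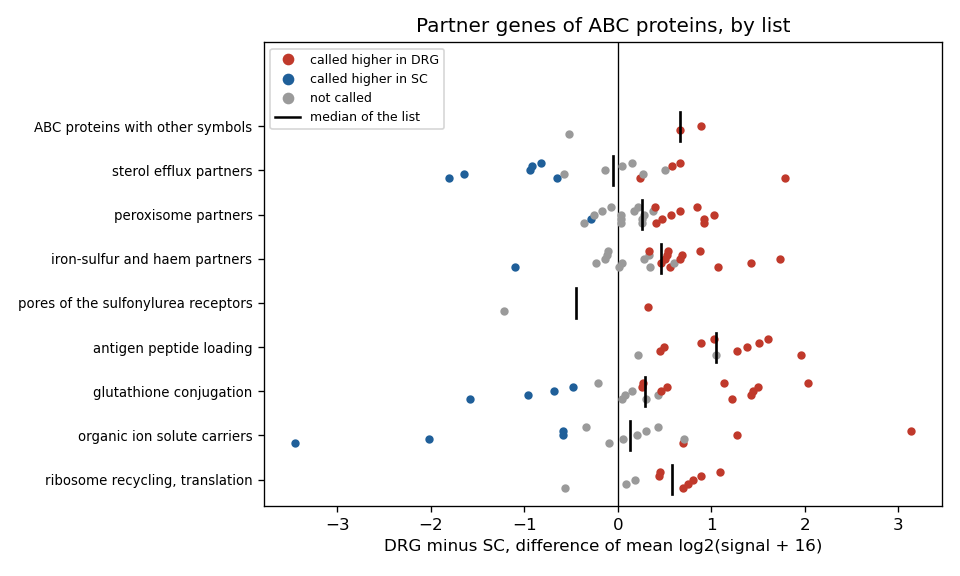
Difference between tissues (x axis, DRG minus SC on the log2(signal + 16) scale) for the measured genes of 9 partner lists (y axis), with 1 point per gene on the deposited scaling and a black bar at the median. The lists of antigen peptide loading and of ribosome partners have 9 and 7 genes called toward DRG and 0 toward SC, while sterol efflux has calls on both sides.

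Cell type markers moved with the tissues beside all of these differences. Over all genes, 31.8% were called toward DRG and 9.7% toward SC on the deposited scaling. Of 9 astrocyte markers, 9 were higher in SC, with a summed signal of 22156 to 24086 against 1744 to 1807 in DRG, where 5 of them, Gfap and Slc1a2 included, were under the level of genes not expected. Of 11 oligodendrocyte markers, 10 were higher in SC (30875 to 35614 against 11948 to 12812). Of 9 Schwann cell markers, 8 were higher in DRG (23722 to 24552 against 4821 to 5413), as were 9 of 9 sensory neuron markers (36584 to 37656 against 684 to 839) and 7 of 11 markers of fibroblasts and meninges (16816 to 18152 against 3932 to 3982). On each other scaling 1 Schwann cell marker and 2 fibroblast markers were called toward SC. Of 13 endothelial markers, 4 (30.8%, near the share of all genes) were called toward DRG and 3 (23.1%) toward SC. The split was 2 against 3 and 0 against 4 on the other scalings (summed signal 2832 to 3080 in DRG against 3204 to 3416 in SC). Of 14 markers of microglia and macrophages, 3 were higher in DRG, namely the tissue macrophage genes Mrc1, Cd163 and Lyve1. Cd163 and Lyve1 were dim in both tissues and Mrc1 in SC. Toward SC, 8 were called (2728 to 2865 in DRG against 3987 to 4259 in SC). Among these, Cx3cr1 and Itgam were dim in both tissues and P2ry12 in DRG. The part of all these cell types in the ABC differences was not tested.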

How the data were processed

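RNA from DRG and SC, 3 arrays each, was measured on microarrays. Per the submitters' processing notes the authors computed signals with MAS5, with no version given. The deposited values are linear ratios. In 91.8% of probe sets the 6 ratios had a median of 1, and the other 8.21% lay on a grid, so a ratio was read as a signal divided by an array factor and by the median of its probe set. No source used here states these steps. Array factors were 84.5 to 89.5 in DRG and 110.5 to 112.6 in SC.

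Signals, which MAS5 writes in steps of 0.1, were recovered as the smallest multiple that made all 6 values whole, for 45091 of 45101 probe sets. Tested on simulated data, 98.2% were exact and 1.78% were off by a factor common to all arrays, which changes a level but hardly a difference. The lowest deposited value, 0.01, is an upper bound. The test had been planned on signals, and the ratios themselves were run as an alternative.

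Probe sets were named from the platform annotation. A single gene was named for 34945, several for 932 and none for 9160, beside 64 controls, which were left out of the fit. log2(signal + 16) was tested with limma 3.58.1 in R 4.3.3 (lmFit, eBayes with trend), two-sided, tissue as the factor, Benjamini-Hochberg over 45029 probe sets, threshold 0.05. Recovery used numba 0.67.0 and numpy 2.4.6, and tables and plots pandas 2.3.3 and matplotlib 3.10.9, in Python 3.11.15. Levels of different probe sets were not tested against each other. They were used to pick the brightest probe sets, for the Abcc5 ratio and for the sums of marker lists, in which bright probe sets weigh most. The number of arrays limits the precision. Values on every array were given for genes called with a log2 difference of at least 1, the 4 brightest others and genes with opposite calls, and up to 3 called genes of a partner list were named. Members and lists were chosen with earlier results of these data known. Alternatives were the pseudocount, the deposited ratio, 2 other scalings, a filter on low signals, no trend, probe sets with several targets left out, a replicate block, each array left out, averaging over all probe sets of a gene and a fit over genes.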

Additional observations from a re-analysis of the deposited data

How the results depend on the processing

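Of the 22 called genes, Abca1, Abca2, Abca3, Abca5, Abca7, Abca8a, Abca8b, Abcb6, Abcc4, Abcc9, Abcd2 and Abce1 kept direction and call under all 17 alternatives run. The array scaling mattered most. After quantile normalization, 5 ABC genes were called higher in SC, 16 ABC probe sets higher in DRG, and 6723 of all probe sets higher in DRG, against 3, 26 and 10202. With signals before the array scaling, the calls toward DRG and SC were 11 and 7 ABC genes, 15 and 21 ABC probe sets, and over all probe sets 6011 and 8971. Quantile normalization reversed Abcd3 (−0.14), Abcf1 (−0.011) and Abcg4 (−0.20), and signals before the array scaling reversed Abcb4 (−0.014) and Abcg4 (−0.12), all without a call. Leaving out probe sets that can match several transcripts reversed Abcc5 (−0.30) and Abcb8 (0.15), without a call, and left 40 genes. With probe sets above the level of genes not expected on at least 3 arrays, 7 ABC probe sets were called higher in SC, from fewer probe sets tested. With all probe sets of a gene averaged, 5 ABC genes were higher in SC. Leaving out 1 array gave 15 to 18 ABC genes higher in DRG and 3 to 4 in SC, 21 to 25 and 8 to 13 ABC probe sets, and 9041 to 10122 and 3530 to 4141 of all probe sets. Where not stated, the cause was not tested. Same-numbered DRG and SC arrays did not deviate together (correlations of −0.01, −0.02 and 0.00), so the numbers were not taken as pairs. With the replicate number as a block, 17 ABC genes were called higher in DRG and 4 in SC, 24 and 12 ABC probe sets, and 9976 and 4182 of all probe sets. The block ended the calls of Abcb4 (adjusted p = 0.0879) and Abcg4 (0.0521) and added Abcb8 (0.0237). Abcb4, Abcf1 and Abcg4 also lost their calls with the log2 of the deposited ratio (0.0634, 0.0628 and 0.11) and without the trend (0.0741, 0.0682 and 0.137), and Abcf1 with probe sets of several targets left out (0.19, adjusted p = 0.557). The mean of the probe sets ended the calls of Abca9 (0.117), Abcc1 (0.0599), Abcc5 (0.19), Abcd3 (0.765), Abcf1 (0.568) and Abcf2 (0.112), and made Abcb10 a call toward SC (0.00373). The partner and marker lists were not run with the filter, with probe sets of several targets left out or with the 2 gene-level settings. Dim genes are limited by signal near the level of genes not expected, and the 3 arrays per tissue limit the precision.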

Other observations

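Other marker lists moved as follows on the deposited scaling, where 31.8% of all genes were called toward DRG and 9.7% toward SC. Of 9 central neuron markers, 7 were called toward SC and 1 toward DRG. The summed signal was 14017 to 14561 in SC and 3811 to 4201 in DRG. Of 5 satellite glia markers, 2 were higher in DRG and 3 in SC. Of 5 perineurium markers, 3 were higher in DRG and 1 in SC, and of 5 adipocyte markers 3 were higher in DRG and 0 in SC. Of 9 markers of ependyma and choroid plexus, 2 were called toward each tissue, with 3 and 4 toward SC on the other scalings. Of 3 measured blood markers, 1, Alas2, was higher in DRG. Of 7 skeletal muscle markers, 0 were called by limma, and 1, Myh1, had an unadjusted p under 0.05 (0.0313). After quantile normalization 1 was called toward SC and before the array scaling 2 were, with summed signals of 1807 to 3021 in DRG and 1730 to 3321 in SC.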
